A study of Rattus norvegicus with 4 samples.

Results

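The immediate early genes described here are Fos, Fosb, Junb, Egr1, Atf3, Nr4a1, Ier3, Dusp1 and Zfp36, 9 of the 25399 genes in the count table. They were taken by symbol, and each of the 9 symbols was found in 1 row. The study used droplet RNA sequencing of the 3′ ends of transcripts from single cells of Sprague Dawley rats, an outbred strain, from sciatic nerve or dorsal root ganglion, each at postnatal day 1 or at 8 weeks of age. Each of these 4 groups had 1 library, and the labels name no treatment, give the sex as not determined and do not say how many animals were pooled. A culture protocol for primary Schwann cells stands among the labels, which leave unsaid whether the sequenced cells had been cultured.

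Barcodes ended in a number from 1 to 4 that no label or file used here ties to a tissue or an age. The libraries are therefore called library 1 to library 4, no tissue or age is compared, and values of different libraries are set side by side without a test. With 1 library per group, no p-value was possible. All intervals are exact 95% intervals (Poisson for levels, Clopper-Pearson for shares and ratios) and cover counting error only.

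Immediate early genes are switched on within minutes of a stimulus without new protein synthesis, through transcription factors that already sit in the cell, and their short-lived transcripts soon decay. Fos, Fosb and Junb encode subunits of the transcription factor AP-1, Egr1 encodes a zinc finger factor, Atf3 a stress-induced factor of the ATF family and Nr4a1 an orphan nuclear receptor. The other members act largely as brakes. Dusp1 encodes a phosphatase that switches off MAP kinases, Zfp36 a protein that speeds the decay of AU-rich transcripts, and Ier3 a regulator of survival signalling. In peripheral nerve, Atf3 is best known as a marker of injured sensory neurons, and several members are known to respond to the dissociation of tissue. Its part in the levels given here was not tested.

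Promoter windows of 6 of the 9 members were found in the RefSeq table (build GRCr8), and the 250 bases before the annotated start were searched on both strands. The 4 windows shown hold a match to the CArG box or to TGACG and belong to members with different orders across cell classes in the results that follow. Capitals mark the CArG box, the letters bound by serum response factor, and the letters TGACG, the core of the cyclic AMP response element TGACGTCA, which reads CGTCA where it lies on the other strand.
Egr1, chr18:26736828-26737077, plus strand: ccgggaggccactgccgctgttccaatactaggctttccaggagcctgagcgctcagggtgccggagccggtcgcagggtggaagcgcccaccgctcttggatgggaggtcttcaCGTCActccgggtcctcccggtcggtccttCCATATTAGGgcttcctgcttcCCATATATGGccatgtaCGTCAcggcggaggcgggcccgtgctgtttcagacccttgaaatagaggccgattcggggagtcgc
Dusp1, chr10:17184603-17184852, plus strand: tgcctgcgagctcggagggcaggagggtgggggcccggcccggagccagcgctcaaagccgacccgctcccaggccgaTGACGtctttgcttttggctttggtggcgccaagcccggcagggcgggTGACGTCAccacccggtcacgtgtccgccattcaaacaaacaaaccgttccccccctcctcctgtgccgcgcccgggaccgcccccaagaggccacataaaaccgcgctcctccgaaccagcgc
Nr4a1, chr7:134259888-134260137, plus strand: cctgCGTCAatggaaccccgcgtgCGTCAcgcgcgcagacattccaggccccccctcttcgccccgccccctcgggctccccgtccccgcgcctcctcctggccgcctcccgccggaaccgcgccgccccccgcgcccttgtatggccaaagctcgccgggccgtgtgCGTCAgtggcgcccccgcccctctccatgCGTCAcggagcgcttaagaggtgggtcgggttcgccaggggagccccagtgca
Zfp36, chr1:92799109-92799358, minus strand: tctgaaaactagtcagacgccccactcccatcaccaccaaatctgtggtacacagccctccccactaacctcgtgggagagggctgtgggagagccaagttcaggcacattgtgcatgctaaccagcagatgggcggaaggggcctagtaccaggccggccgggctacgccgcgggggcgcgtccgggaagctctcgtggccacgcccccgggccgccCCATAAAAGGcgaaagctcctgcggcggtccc
The window of Egr1 held 2 CArG boxes and that of Zfp36 held 1. A CArG box was found in 1.5% of all 33469 windows of this length. Dusp1 was the 1 member with the whole element TGACGTCA, which 1.59% of windows held. The shorter TGACG, which also lies inside that element, was found in Junb, Egr1, Dusp1 and Nr4a1 and in 18.2% of all windows, and the AP-1 letters TGANTCA were found in 0 of the 6 members and in 6.34% of windows. The letters are a description of these windows.

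The 4 libraries held 41444 barcodes, of which 33175 passed the limits of 500 genes and 20% of UMIs (unique molecular identifiers, 1 per captured transcript) from mitochondria. Cells per library ranged from 6473 to 9828 and median depth from 1645.5 to 7554.5 UMIs. A marker gate gave 23128 cells a class, and 11.0%, 61.1%, 21.6% and 28.7% of the cells of libraries 1 to 4 were left without one, including those with markers of several classes. The ungated cells of library 2 had a median of 1108 UMIs. The gate left 22 combinations of class and library with at least 50 cells: glia-like (Schwann or satellite), fibroblast-like, endothelial-like and macrophage-like cells in all 4 libraries, mural-like cells in libraries 2, 3 and 4, neuron-like cells in libraries 2 and 3, and perineurial-like cells in library 1. In each of the 22, the class's markers had a higher summed level than the same markers had in any other class of that library. None of the 10 leading genes was a marker of another class. The gate used these same markers, so neither result is an independent check of the classes. Tyrp1, known from pigment cells, was the leading gene of the 202 glia-like cells of library 1. Any 2 libraries shared between 13 and 30 cell barcodes.

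All 9 members had UMIs in each of the 22 combinations, at levels that differed widely between classes. Level here is CPM, the UMIs of a gene divided by all UMIs of the class and multiplied by 1000000. The 9 members together made up between 0.0333% of UMIs, in neuron-like cells of library 3, and 2.19%, in mural-like cells of library 2. Outside the neuron-like cells the lowest share was 0.505%, in macrophage-like cells of library 1. Leaving neuron-like cells aside, library 2 ran from 9335 CPM in macrophage-like to 21891 CPM in mural-like cells. Library 1 ran from 5046 to 7564 CPM. On the same terms library 3 ran from 5751 to 13674 CPM and library 4 from 9143 to 12490 CPM.

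**Figure D1:**
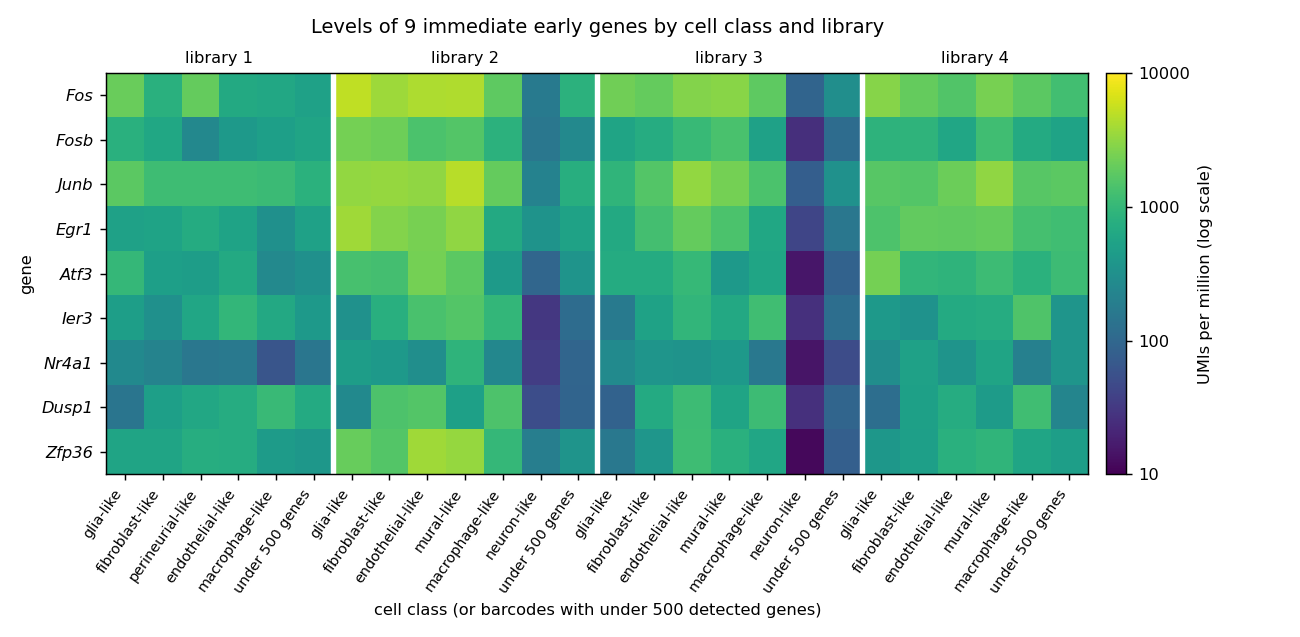
Levels of the 9 members (rows) in CPM on a log color scale, for each cell class of libraries 1 to 4 and for the barcodes with under 500 detected genes (columns). The neuron-like columns of libraries 2 and 3 are the darkest, and Dusp1 is dark in all 4 glia-like columns.

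Barcodes with under 500 genes, called low-gene barcodes here, were set beside the cells. Haemoglobin made up 47.4%, 21.6%, 72.9% and 72.1% of their UMIs in libraries 1 to 4 and 1.55% to 2.46% of those of the cells, so they are not a pure measure of free RNA. With haemoglobin left out of the total, their summed levels of the 9 members were 4374, 3411, 1333 and 7331 CPM, and Fos reached 515.6, 836.6, 304.5 and 1237 CPM. In libraries 2 and 3 nearly all levels outside neuron-like cells lay above these values: the exception in library 2 was Atf3 in macrophage-like cells, and in library 3 Dusp1 in glia-like cells, whose intervals overlapped them. In libraries 1 and 4 between 4 and 8 members of 9 were above them in each class, and between 0 and 4 were below. Those below included Junb, Dusp1, Nr4a1 and Zfp36 in glia-like cells of library 4, and Junb and Atf3 in its fibroblast-like cells. Fosb was below in endothelial-like and perineurial-like cells of library 1. A low-gene barcode held 3.1, 2.35, 0.641 and 4.34 UMIs of the 9 members on average, and a cell 39.7, 60.4, 25.5 and 93.5. The part of free RNA in the levels was not tested.

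In CPM the neuron-like cells carried the least of every member. In library 2, Fos was at 169.8 CPM in 703 neuron-like cells and at 5170 CPM in 1109 glia-like cells. In library 3 it was at 92.60 CPM in 2380 neuron-like cells and at 2213 CPM in 544 glia-like cells. The log2 ratio of neuron-like over glia-like cells was -4.93 (-4.96 to -4.89) in library 2 and -4.58 (-4.63 to -4.52) in library 3. Dusp1 had the smallest gap, -2.39 (-2.48 to -2.31) and -1.74 (-1.96 to -1.53), and Atf3 had the largest gap of library 3, -5.56 (-5.67 to -5.44). All 9 members were at least 2-fold lower in both libraries, while 22.2% of all genes measured were lower in library 2 and 26.8% in library 3, and 33.2% and 22.3% were at least 2-fold higher. The median log2 ratio of the members was -3.76 and -3.97, against 0.34 and -0.03 over all genes.

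Deeper barcodes did not make up for this in the sum of the 9 members against glia-like cells. Neuron-like cells had a median of 63847 UMIs in library 2 and 30492.5 in library 3, against 8466 and 3800 in glia-like cells. In sum they still held fewer UMIs of the 9 members per barcode, 75.9 against 189 in library 2 and 9.50 against 23.9 in library 3. Dusp1 went the other way, at 2.97 against 2.64 in library 2 and 0.748 against 0.366 in library 3. So did Ier3 in library 3, at 0.742 against 0.722. In library 2 the neuron-like sum was above those of mural-like (74.9) and macrophage-like barcodes (36.3). Egr1, at 20.3 per neuron-like barcode of library 2, was above every class but glia-like. In CPM all 9 members lay below their level in the low-gene barcodes of both libraries, while per barcode the neuron-like cells held more than the 2.35 and 0.641 UMIs found there. For Atf3, 97.49 and 15.04 CPM in neuron-like cells stood beside 358.9 and 88.16 CPM in low-gene barcodes, and 5.73 and 0.429 UMIs per barcode beside 0.248 and 0.0424. After every barcode was thinned to 1000 UMIs, Fos was found in 12.8% of neuron-like and 95.6% of glia-like barcodes of library 2, and in 8.98% and 74.6% in library 3. Without thinning the shares of neuron-like cells were 78.7% and 51.2%. Fewer cells with a transcript and fewer transcripts per cell cannot be told apart in a summed level.

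Among the other classes, no single one was highest for all members. Glia-like cells held the highest level of 5, 3, 0 and 2 members in libraries 1 to 4, endothelial-like cells of 1, 3, 4 and 0, and macrophage-like cells of 1, 0, 2 and 2. Mural-like cells, the pericytes and smooth muscle cells of vessels, held 3, 3 and 5 in libraries 2, 3 and 4, and perineurial-like cells held 2 in library 1. Fibroblast-like cells were highest for 0 members in all 4 libraries.

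The AP-1 subunits were highest in glia-like or vessel cells. Fos was at 2045, 5170, 2213 and 2864 CPM in glia-like cells of libraries 1 to 4 and at 803.3, 3626, 1972 and 1961 CPM in fibroblast-like cells. It was thus higher in glia-like cells in each library, by a log2 ratio of 1.35 (1.27 to 1.42), 0.51 (0.48 to 0.54), 0.17 (0.12 to 0.21) and 0.55 (0.53 to 0.56). Glia-like cells led the order for Fos in libraries 1, 2 and 4, with perineurial-like cells of library 1 (1973 CPM) inside their counting error. In library 3, mural-like (2945 CPM) and endothelial-like cells (2778 CPM) came first and did not differ beyond their intervals.

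Fosb and Junb did not follow Fos in every library. Fosb, which also encodes the long-lived splice form ΔFosB, was highest in glia-like cells of libraries 1 (796.0 CPM) and 2 (2331 CPM) and in mural-like cells of libraries 3 (1387 CPM) and 4 (1205 CPM). Junb was highest in glia-like cells of library 1 (1760 CPM), in endothelial-like cells of library 3 (3271 CPM) and in mural-like cells of libraries 2 (4726 CPM) and 4 (3153 CPM). The log2 ratio of glia-like over fibroblast-like cells for Junb was 0.60 (0.51 to 0.68), -0.02 (-0.06 to 0.01), -0.78 (-0.85 to -0.72) and 0.05 (0.03 to 0.07). It pointed up in library 1, where the median over all genes was already 0.41. In library 3, where that median was 0.03, the ratio for Junb pointed down.

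Egr1, whose product binds GC-rich promoters, had no fixed place either. It was highest in glia-like cells of library 2 (3776 CPM), endothelial-like cells of library 3 (1950 CPM), mural-like cells of library 4 (1946 CPM) and perineurial-like cells of library 1 (704.1 CPM). In library 4 the mural-like, fibroblast-like (1906 CPM) and endothelial-like levels (1868 CPM) overlapped in their intervals. Macrophage-like cells were below fibroblast-like cells in all 4 libraries, with log2 ratios of -0.81 (-0.87 to -0.75), -2.08 (-2.20 to -1.96), -1.02 (-1.19 to -0.86) and -0.56 (-0.62 to -0.49). In libraries 1 and 4 Egr1 was lowest in macrophage-like cells, and in library 1 that level was below the 525.2 CPM of low-gene barcodes.

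Atf3 stood apart in the glia-like cells of libraries 1 and 4. It reached 991.0 and 2385 CPM there, where fibroblast-like cells held 492.5 and 947.3 CPM, a log2 ratio of 1.01 (0.90 to 1.12) and 1.33 (1.31 to 1.36). In libraries 2 and 3 the 2 classes were nearly level, at 1342 and 1283 CPM and at 707.4 and 695.9 CPM. The highest Atf3 of those libraries was in endothelial-like cells, at 2374 and 1011 CPM. In the thinned barcodes of library 4, Atf3 was found in 78.6% of glia-like and 51.3% of fibroblast-like cells. Low-gene barcodes of library 4 had Atf3 at 1137 CPM, above fibroblast-like cells and below glia-like cells.

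Nr4a1, the nuclear receptor, was the member that macrophage-like cells carried least, and the same held for endothelial-like cells. Its level in macrophage-like cells was 61.23, 245.7, 159.8 and 200.3 CPM in libraries 1 to 4, lower than in every other class but neuron-like cells. The log2 ratio to fibroblast-like cells was -1.86 (-2.0 to -1.72), -0.72 (-0.93 to -0.52), -1.20 (-1.54 to -0.88) and -1.37 (-1.54 to -1.21). In libraries 1 and 4 these macrophage-like levels were below those of low-gene barcodes (151.1 and 364.7 CPM). Mural-like cells had the most Nr4a1 in each library where they could be measured, 886.9, 411.8 and 560.5 CPM in libraries 2, 3 and 4, with fibroblast-like cells inside the counting error in libraries 3 and 4.

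Dusp1 had the same class at the low end of its order in each library. Leaving neuron-like cells aside, glia-like cells were lowest in all 4 libraries, at 144.9, 265.8, 87.98 and 122.3 CPM. Fibroblast-like cells held 499.2, 1449, 684.6 and 507.6 CPM, a log2 ratio of -1.78 (-2.08 to -1.50), -2.45 (-2.51 to -2.38), -2.96 (-3.17 to -2.76) and -2.05 (-2.10 to -2.0). Low-gene barcodes had Dusp1 at 678.7, 92.82, 96.17 and 230.6 CPM, above the glia-like level in libraries 1 and 4 and above the fibroblast-like level too in library 1. Per barcode, glia-like cells held 0.50, 2.64, 0.366 and 1.10 UMIs of Dusp1 and low-gene barcodes 0.480, 0.0640, 0.0463 and 0.137.

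The class that led the order for Fos in 3 libraries was thus behind all others but neuron-like cells for Dusp1. In thinned glia-like barcodes Fos was found in 57.7%, 95.6%, 74.6% and 87.0% and Dusp1 in 12.4%, 18.4%, 9.51% and 10.4%, in the order of libraries 1 to 4. Fibroblast-like barcodes had Dusp1 in 33.6%, 60.4%, 38.0% and 36.5%. Without thinning, the glia-like shares of Dusp1 were 26.7%, 60.5%, 21.5% and 40.8%. Macrophage-like cells were highest for Dusp1 in libraries 1, 3 and 4, at 1075, 1145 and 1191 CPM, and endothelial-like cells in library 2, at 1572 CPM. In library 3 the endothelial-like level of 1133 CPM was inside the counting error of the macrophage-like one.

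Ier3, the survival regulator, also favoured macrophages and vessel cells. Macrophage-like cells held 649.6, 970.5, 1199 and 1508 CPM, while fibroblast-like cells held 323.3, 775.1, 539.8 and 335.3 CPM. The log2 ratios were 1.01 (0.96 to 1.05), 0.32 (0.21 to 0.43), 1.15 (1.03 to 1.27) and 2.17 (2.10 to 2.24), the last being the largest of any member in that comparison. Low-gene barcodes had Ier3 at 417.3 CPM in library 1, above fibroblast-like cells, and at 370.5 CPM in library 4, where the intervals overlapped. Endothelial-like cells were above fibroblast-like cells in each library too, by 1.59 (1.49 to 1.69), 0.84 (0.77 to 0.91), 0.80 (0.72 to 0.89) and 1.04 (0.93 to 1.14). Glia-like cells went both ways: their log2 ratio to fibroblast-like cells was 0.56 and 0.30 in libraries 1 and 4 and -1.23 and -1.64 in libraries 2 and 3. The median over all genes in this comparison was 0.41 in library 1.

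Zfp36, whose product destabilises cytokine transcripts, was highest in cells of the vessel wall. Endothelial-like cells held 720.1, 3749, 1184 and 794.4 CPM and mural-like cells of libraries 2, 3 and 4 held 3372, 813.1 and 906.4 CPM. The endothelial-like over fibroblast-like log2 ratio was 0.34 (0.22 to 0.45), 1.26 (1.21 to 1.30), 1.65 (1.57 to 1.74) and 0.70 (0.60 to 0.80). In library 1 perineurial-like cells (746.3 CPM) came before endothelial-like cells, and in library 4 mural-like cells did, in both without differing beyond the intervals. Glia-like cells of library 3 had 160.9 CPM, a log2 ratio of -1.23 (-1.38 to -1.07) to fibroblast-like cells, while in library 2 they had 1989 CPM and a ratio of 0.34 (0.30 to 0.38).

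Counted over the 9 members, at most 4 passed 2-fold in the same direction in any library of the contrasts between classes other than neurons. The share of all genes stands beside each count, and single counts departed from it both ways. In glia-like over fibroblast-like cells, 2, 0, 0 and 1 members were at least 2-fold higher in libraries 1 to 4, where 27.9%, 13.9%, 11.4% and 15.2% of all genes were. Lower were 1, 2, 3 and 1 members, where 12.6%, 15.8%, 18.2% and 17.2% of genes were. Those higher were Fos and Atf3 in library 1 and Atf3 in library 4. Dusp1 was lower in all 4 libraries, Ier3 in libraries 2 and 3, and Zfp36 in library 3. In library 1 the median log2 ratio over all genes was 0.41, and relative to it Fos stood at 0.94 and Atf3 at 0.60, so that neither passed 2-fold. With ratios centred in this way, 17.9% of genes were higher and 18.9% lower in library 1. Centring also moved macrophage-like cells of library 4 to 17.3% higher and 20.5% lower, endothelial-like cells of library 3 to 15.6% and 17.9%, and neuron-like cells of library 2 to 25.8% and 27.1%. Medians further than 0.1 from 0 were also found for endothelial-like cells of libraries 1 to 3 (0.18, 0.15 and -0.19), macrophage-like cells of libraries 3 and 4 (-0.15 and -0.35) and neuron-like cells of library 2.

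In endothelial-like over fibroblast-like cells 1, 1, 2 and 1 members were at least 2-fold higher, with 24.2%, 18.9%, 12.2% and 12.8% of genes higher. No member was lower, with 16.1%, 14.9%, 21.9% and 18.9% of genes lower. The members past 2-fold were Ier3 in libraries 1 and 4, Zfp36 in libraries 2 and 3 and Junb in library 3. In macrophage-like over fibroblast-like cells 2, 0, 1 and 2 members were higher, with 18.4%, 12.0%, 14.2% and 12.3% of genes higher, and 1, 4, 2 and 1 were lower, with 24.9%, 21.4%, 21.3% and 28.5% of genes lower. Ier3 was higher in libraries 1, 3 and 4 and Dusp1 in libraries 1 and 4. Nr4a1 was lower in libraries 1, 3 and 4, Egr1 in libraries 2 and 3, and Fos, Fosb and Atf3 in library 2. Centred on the median of all genes, Fos in library 2 (-0.94) and Egr1 in library 3 (-0.87) no longer passed 2-fold. These 3 contrasts share the fibroblast-like cells of each library, so their values are not independent of each other.

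**Figure D2:**
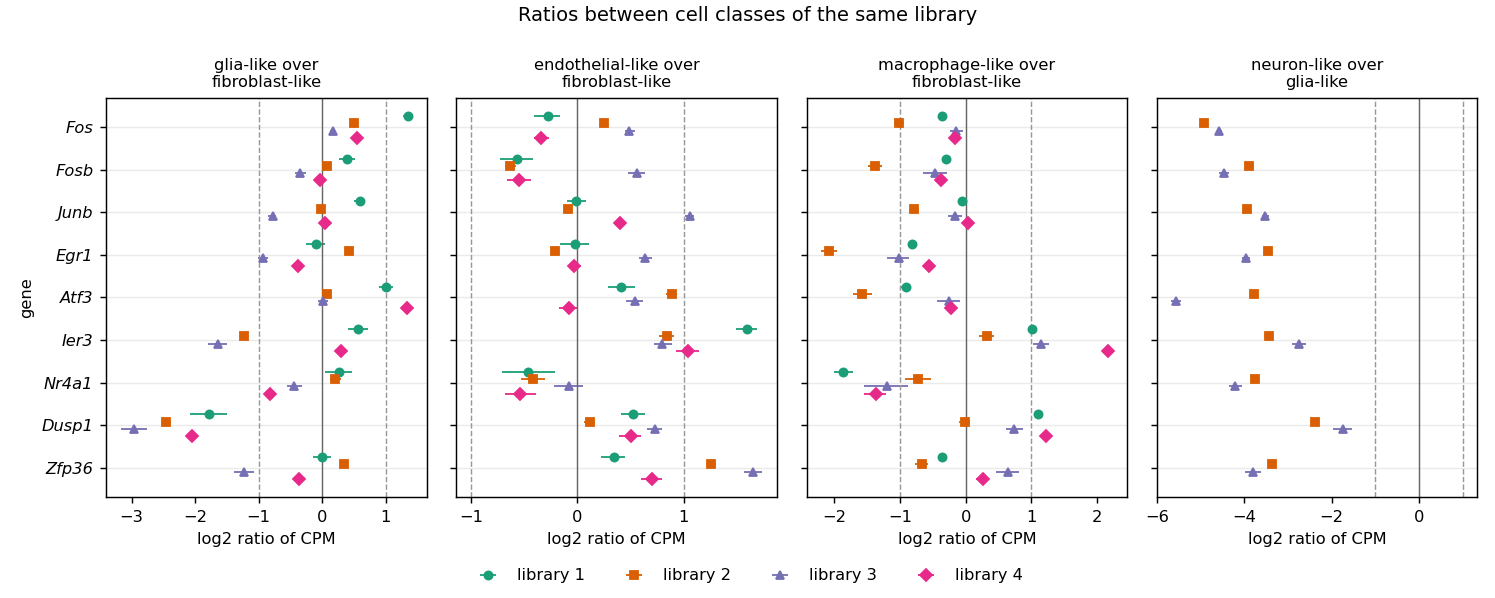
Log2 ratio of CPM (horizontal axis) of each member between 2 cell classes of the same library, with the exact 95% interval as a bar and a symbol for each library; dashed lines mark 2-fold. All neuron-like points lie left of the dashed lines, the Dusp1 points lie left of it in glia-like cells of all 4 libraries, and most others scatter around 0.

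Within the glia-like cells, levels were compared by the number of myelin genes found in a barcode. In library 2, the 115 barcodes with 3 or more myelin genes had Fos at 8070 CPM, against 5073 CPM in those with 1 or 2 and 4916 CPM in those with none. The same barcodes held less Egr1 (2001 against 4044 and 3332 CPM), less Zfp36 (659.5 against 2184 and 1671 CPM) and more Nr4a1 (1291 against 443.3 and 394.6 CPM). They also had a lower median depth, 3950 UMIs, and a lower mitochondrial share, 8.51% against 14.7% and 14.5%. The part of depth and of mitochondrial share in these differences was not tested. In library 3 the order of Fos was the other way, at 1946 CPM in barcodes with 3 or more myelin genes and 2784 CPM in those with 1 or 2. In the 4558 glia-like cells of library 4 the levels were 2863 and 2883 CPM. In library 1 they were 2521 CPM in 120 barcodes and 1401 CPM in 77. The direction thus differed between libraries. Dividing glia-like cells of library 4 had the 9 members at 9548 CPM in sum, against 10562 CPM in the others, and those of library 3 at 3814 against 5882 CPM, from 24 dividing cells.

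The mitochondrial share of a barcode moved with the members in some classes. With mitochondrial UMIs left out of the total, fibroblast-like cells of library 3 held 10942 CPM of the 9 members at a share of up to 5%, 8060 CPM at 5 to 10% and, in 60 cells, 4736 CPM at 10 to 20%. Macrophage-like cells of library 2 went up instead, from 6025 CPM in 35 cells to 9910 CPM in 182 and 15147 CPM in 30. Glia-like cells of library 4 were at 11724 CPM at 5 to 10% and 11776 CPM at 10 to 20%. The direction thus differed between classes and libraries, and the part of RNA quality in the levels was not tested.

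Single barcodes often carried many members at once. Before thinning, the median glia-like cell of library 4 (7709 UMIs) held 8 of the 9 members and 24.0% of these cells held all 9. Of fibroblast-like cells of library 1, 25.1% held all 9, and of macrophage-like cells of library 4, 60.0%. Thinned to 1000 UMIs, the mean number of members per barcode ranged from 2.95 in glia-like cells of library 3 to 6.26 in mural-like cells of library 2, and it was 0.939 and 0.379 in neuron-like cells. Co-detection was described in the 16 combinations of class and library with at least 200 thinned barcodes.

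Members were found together more often than their separate shares multiply to, by a modest margin. Of the 36 pairs, between 30 and 36 had a ratio of observed to multiplied shares above 1 in each of the 16 combinations. No such count over pairs of all genes is given, so it is not shown to be particular to the members. The median ratio over pairs ran from 1.02 to 1.25 outside neuron-like cells. In glia-like cells of library 3, for example, Fosb and Dusp1 were found together in 28 of 536 barcodes, where the shares multiply to 18.55. Fos and Junb were found together in 2892 of 4556 glia-like barcodes of library 4, where they multiply to 2772. Neuron-like cells had median ratios of 1.96 and 2.45, on few counts. The ratio cannot exceed 1 divided by the larger of the 2 shares, so members found in most barcodes leave it little room. Ratios of pairs or classes with unlike shares therefore cannot be ranked by strength. Barcodes of 1 library share their source, so no p-value is given.

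**Figure D3:**
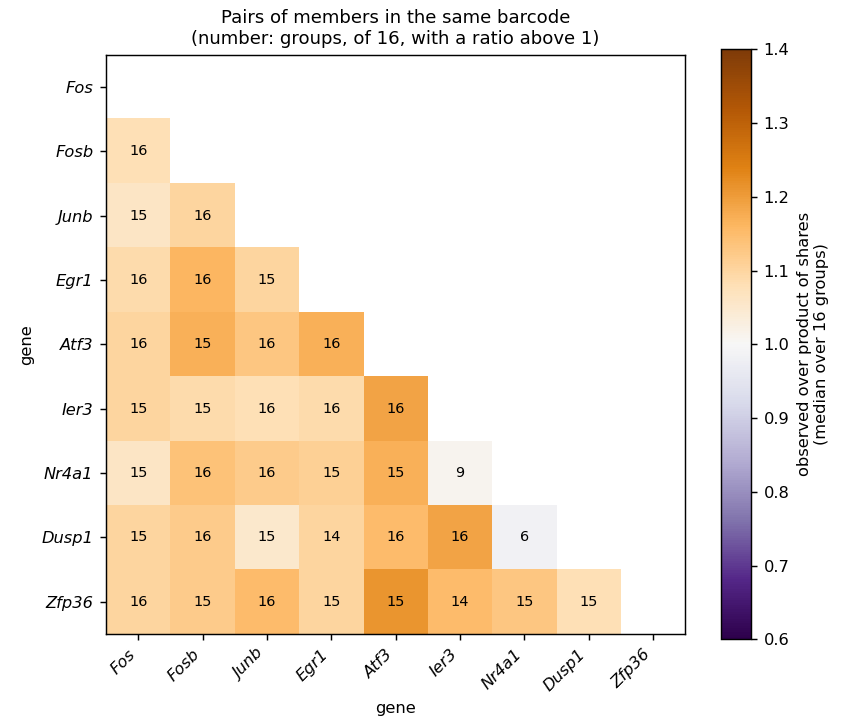
For each pair of members, the color gives the median over 16 combinations of class and library of barcodes holding both, divided by the product of the 2 shares, after thinning to 1000 UMIs. The number in a square counts the combinations, of 16, with a ratio above 1: it is 14 to 16 for 34 pairs, 9 for Ier3 with Nr4a1 and 6 for Dusp1 with Nr4a1.

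A single pair did not share this pattern. Dusp1 and Nr4a1 had a ratio above 1 in 6 of 16 combinations, with a median of 0.986. In glia-like cells of library 4 they were found together in 104 barcodes, where the shares multiply to 108.9. In glia-like cells of library 2, by contrast, their ratio of 1.28 was the highest of the 36 pairs. Their shares there were low, at 18.4% and 33.3% of thinned barcodes, and left more room than that of Fos (95.6%). Over the 16 combinations the ratio of Dusp1 and Nr4a1 ran from 0 to 3.29. Ier3 and Nr4a1 came next, with 9 of 16 and a median of 1.01. The highest medians belonged to Atf3 with Zfp36 (1.21), Atf3 with Ier3 (1.19) and Ier3 with Dusp1 (1.19), the last 2 being above 1 in all 16.

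The counts per barcode were spread more widely than separate shares would give. The variance of the number of members was between 1.46 and 2.44 times the variance of independent members. In glia-like cells of library 4, 1.82% of thinned barcodes held no member, where the shares multiply to 0.0534%, and 50.7% held 5 or more, where they give 46.7%. In fibroblast-like cells of library 1 the values were 7.22% against 2.0% and 21.9% against 15.2%. Barcodes with no member were more frequent than multiplied in 15 of the 16 combinations and barcodes with 5 or more in 10 of 16. The 6 with fewer at 5 or more were the glia-like (81.1% against 84.5%), endothelial-like, fibroblast-like and mural-like cells of library 2 and the endothelial-like and mural-like cells of library 3.

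**Figure D4:**
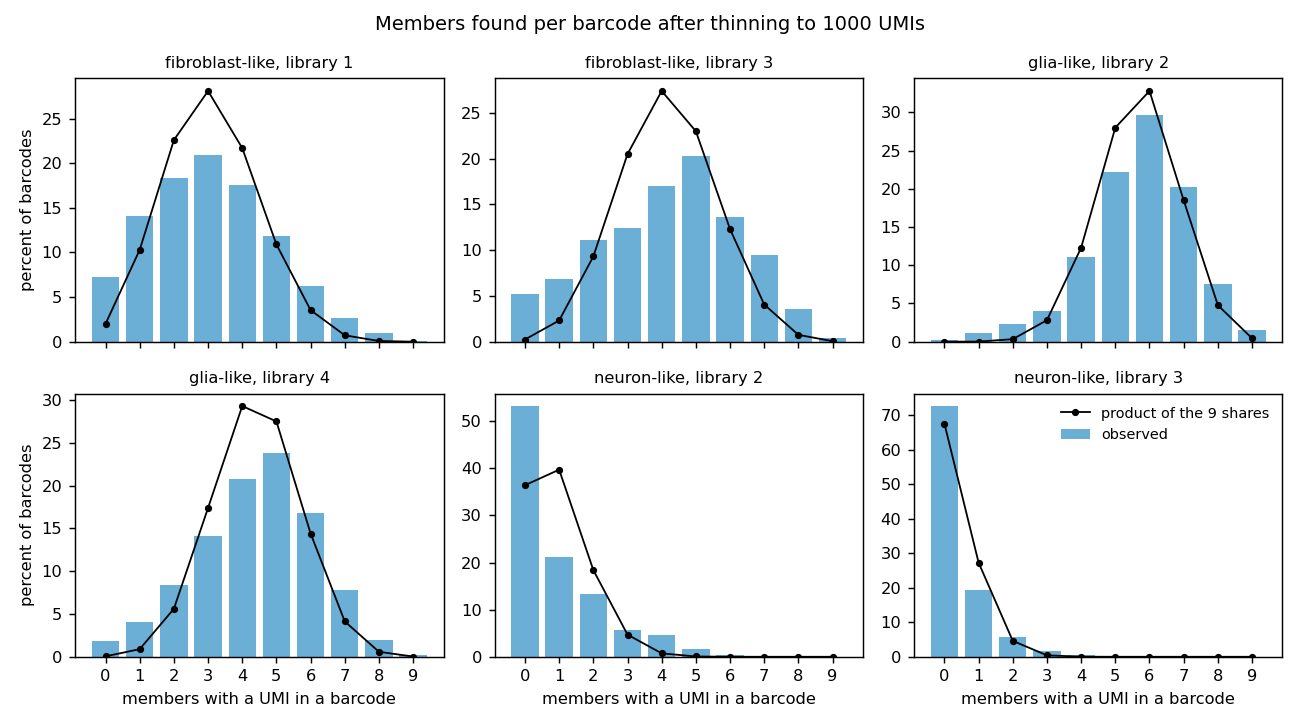
Percent of barcodes (bars) by the number of the 9 members with a UMI, after thinning to 1000 UMIs, in 6 combinations of class and library; black points give the percent that the 9 separate shares multiply to. In all 6 the bars at 0 members stand above the black points, as for fibroblast-like cells of library 1 with 7.22% against 2.0%.

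The share of UMIs held by the richest barcodes differed between libraries. In glia-like cells of library 4, the tenth of barcodes with the most UMIs of the 9 members held 22.4% of them, and in glia-like cells of library 1 it held 35.1%. For Fos these shares were 26.5% and 51.5%. The highest single thinned barcode of library 1 glia-like cells had 21 UMIs of Fos, against a median of 1.

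Other early response genes were taken from a list of 50, of which 48 were found. Their summed level was lowest and highest where that of the 9 members was, at 927.1 CPM in neuron-like cells of library 3 and 24894 CPM in mural-like cells of library 2. Between these ends the 2 sums did not always go together. Endothelial-like cells of library 1 had 15355 CPM of the list and 6005 CPM of the members. Fibroblast-like cells of library 2 had 17585 and 17466 CPM. In neuron-like over glia-like cells 37 of 44 measured genes were at least 2-fold lower in library 2 and 36 of 41 in library 3, beside the 22.2% and 26.8% of all genes. Among them were Zfp36l2, a relative of Zfp36 (log2 ratios of -4.62 and -5.28 in libraries 2 and 3), the MAP kinase phosphatase gene Dusp6 (-3.96 and -5.73), Egr2 (-3.87 and -5.47), Egr3 (-4.43 and -4.51), Klf4 (-4.29 and -4.54) and the kinase gene Sgk1 (-3.83 and -4.95). Plk3 and Dusp2 are named because they were the exceptions, chosen after their values were seen. Plk3 went the other way in library 3, with a log2 ratio of 2.09 (1.52 to 2.74) from 24 UMIs in glia-like cells. Dusp2 passed 2-fold in library 2, with 4 UMIs in glia-like cells and an interval of -0.31 to 3.14 that includes 0.

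Against fibroblast-like cells, glia-like cells had 14, 6, 4 and 7 of these genes at least 2-fold higher and 1, 7, 18 and 7 lower, of 41, 42, 44 and 46 measured. Over all genes, 27.9%, 13.9%, 11.4% and 15.2% were higher and 12.6%, 15.8%, 18.2% and 17.2% lower, with the median of 0.41 in library 1 already given. Endothelial-like cells had 18, 9, 20 and 15 higher and 2, 8, 1 and 1 lower, of 45, 44, 45 and 46, where 24.2%, 18.9%, 12.2% and 12.8% of all genes were higher and 16.1%, 14.9%, 21.9% and 18.9% lower. The endothelial-like median log2 ratio of the list was 0.85, 0.32, 0.80 and 0.57, above that of all genes (0.18, 0.15, -0.19 and -0.09) in each library. Higher in all 4 libraries were the phosphatase gene Dusp2 (1.47 to 6.02), Sgk1 (1.52 to 2.92) and Nfkbia, the inhibitor of NF-κB (1.73 to 2.05). Macrophage-like cells had 12, 4, 7 and 5 higher and 5, 14, 5 and 8 lower, of 45, 40, 42 and 46, where 18.4%, 12.0%, 14.2% and 12.3% of all genes were higher and 24.9%, 21.4%, 21.3% and 28.5% lower. Dusp2 (2.13 to 5.18) and Cebpb, a factor of myeloid cells (1.19 to 1.97), were higher there in all 4 libraries. The matrix-associated genes Ctgf (-6.31 to -2.65) and Cyr61 (-3.99 to -2.39) and the factor gene Cebpd (-2.84 to -1.25) were lower in all 4. For Ctgf, libraries 2 and 3 had 3 and 2 UMIs in macrophage-like cells, with intervals of -8.20 to -4.37 and -9.94 to -5.04.

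**Figure D5:**
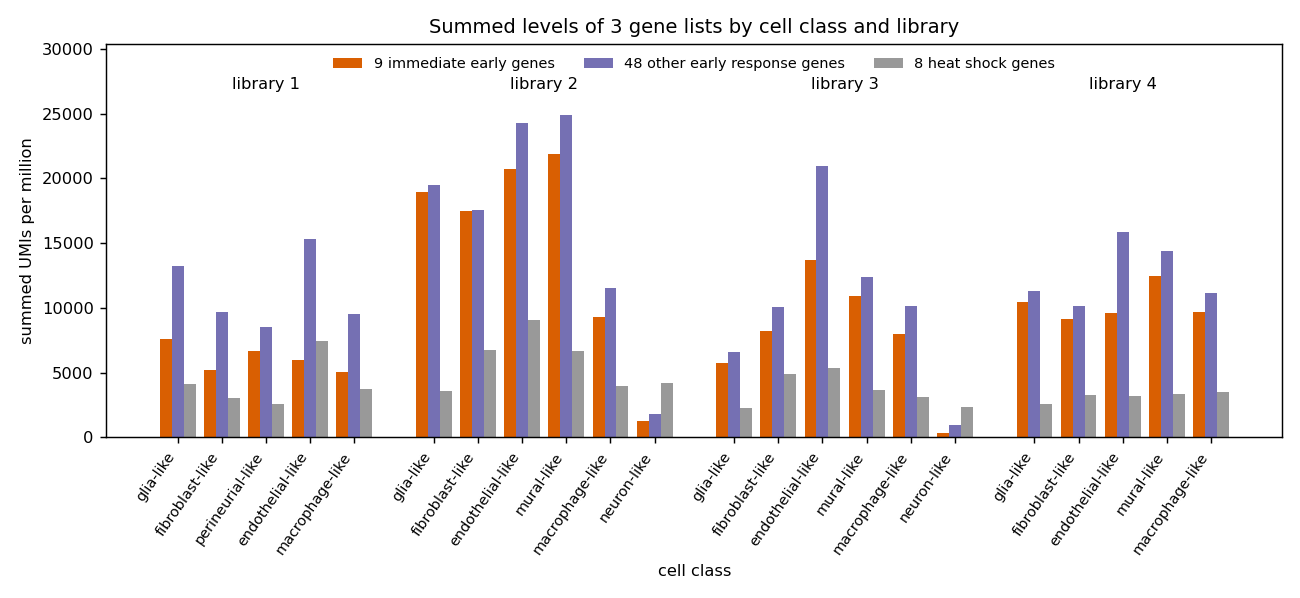
Summed level (CPM) of the 9 immediate early genes, 48 other early response genes and 8 heat shock genes in each cell class of libraries 1 to 4. Both early lists are lowest in neuron-like cells, at 1292 and 333.5 CPM for the 9 members, where the heat shock genes sum to 4206 and 2386 CPM, above glia-like cells and below endothelial-like, fibroblast-like and mural-like cells of library 2 and of library 3.

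Jun, the main AP-1 partner of Fos, was the highest or second highest of this list in most classes. It was at 1365, 4291, 1644 and 2704 CPM in glia-like cells of libraries 1 to 4 and at 1157, 3218, 1755 and 2014 CPM in fibroblast-like cells. Nfkbia led in glia-like cells of library 1 (1606 CPM) and endothelial-like cells of library 1 (3022 CPM), and Btg2, an antiproliferative gene, in endothelial-like cells of libraries 3 (4024 CPM) and 4 (2920 CPM). Cebpb led in macrophage-like cells of libraries 1 (1996 CPM) and 2 (1773 CPM). Gadd45g (4078 CPM) and Gadd45b (3217 CPM), which respond to growth arrest and stress, led in mural-like cells of library 2. In neuron-like cells the order was headed by Jun (340.3 and 162.4 CPM) and Jund (322.2 and 101.5 CPM) in both libraries.

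Over the 22 combinations of class and library, Jun was the gene whose level was most like the mean of the 9 members, with a Pearson correlation of log2(CPM + 10) of 0.951 among 6809 genes. Zfp36l1 (0.937), the heat shock gene Hspa1a (0.927), the unnamed LOC100909712 (0.905), Btg2 (0.892), Gadd45b (0.888), Zfp36l2 (0.886), Irf1 (0.885), Nfyc (0.877) and Csrnp1 (0.845) followed. These points share 4 libraries and their depth, and neuron-like cells set much of the range. Without them (20 points, chosen after seeing the data) Hspa1a came first at 0.869, then Jun at 0.865 and Rhob at 0.851. Of the members themselves, Junb was closest to the mean (0.988, and 0.953 without neuron-like cells) and Dusp1 farthest (0.730 and 0.355). Each member is part of that mean, which raises its correlation, so these values cannot be set against those of other genes. Among genes that are not members, Jun was nearest to Fos, Fosb, Junb, Egr1, Atf3 and Nr4a1, Nfyc to Ier3 (0.898), Map3k8 to Dusp1 (0.864) and Zfp36l1 to Zfp36 (0.904). With neuron-like cells included, Fosb and Junb were nearer to each other (0.945), Dusp1 was nearer to Ier3 (0.871) and Zfp36 nearer to Junb (0.906). Without them Fosb and Junb stayed nearer to each other (0.851). Dusp1 with Ier3 (0.739) then fell behind Slco2b1 (0.866), and Zfp36 with Junb (0.836) behind Jund (0.855). Without neuron-like cells the nearest gene outside the members changed for 5 of the 9, to Hspa1a for Junb, Uba3 for Nr4a1, Cdkn1a for Ier3, Slco2b1 for Dusp1 and Jund for Zfp36, and stayed Jun for the others.

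Among 2272 genes found in enough thinned barcodes, those most often found with Fos relative to their shares were Irf1, Aig1, Washc2c, Plk2, Ier5l, Gadd45g, Rnd3, Gas6, Mt2A and Mkks, with median ratios from 1.09 to 1.12. The median over all these genes was 0.999. Members had median ratios with Fos between 1.06 (Junb and Nr4a1) and 1.09 (Egr1 and Atf3). Their ranks by this ratio ran from 7 (Atf3) to 79 (Nr4a1). The medians covered unlike sets of combinations, such as 8 of 16 for Aig1, Washc2c and Gas6, 14 for Nr4a1 and 16 for Junb. The ranks of members and other genes are therefore not compared. Over all 16 combinations, the medians of members with Fos ran from 1.06 (Junb and Nr4a1) to 1.10 (Atf3, Ier3, Dusp1 and Zfp36). All of these excesses are small, and 3 of the 10 genes, Plk2, Ier5l and Gadd45g, were on the early response list.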

How the data were processed

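The authors deposited UMI counts of 25399 genes in 41444 barcodes as 1 matrix, made with Cell Ranger 3.1.0 per the file headers. CASAVA 1.8, Seurat and the build Rnor_6.0 stand in the submitters' processing notes, their roles not given. The 9 members, the gene lists and the markers were chosen with earlier results of these data known. Cells had at least 500 genes and at most 20% mitochondrial UMIs. A marker counted as present where its UMIs exceeded (Poisson p of 0.01) what barcodes of the same library with under 500 genes would give. A class needed 3 such markers and no other class with more than 50% as many, a rule set after seeing the data. Of 135 marker genes 126 were found. No doublet caller was run, and barcodes with markers of several classes stayed ungated. UMIs were summed per class and library. A ratio used a floor of 3 UMIs per side, needed 20 UMIs on a side and was left out where the side under the floor came out higher, a rule also added after seeing the data. A gene counted as called at 2-fold, with no test. Named genes were the 9 members, at most 5 early response genes of highest level per class, at most 6 per contrast that were 2-fold different in every library, the 10 genes most like the members, the nearest gene to each member, and the 10 genes most often found with Fos. The ratios were tested on simulated data. Software was matplotlib 3.10.9, pandas 2.3.3, scipy 1.17.1 and numpy 2.4.6 under Python 3.11.15.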

Additional observations from a re-analysis of the deposited data

Results flagged for a closer look

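Barcodes with over 20% mitochondrial UMIs were left out of every comparison and still carried the 9 members above the limit that a count of 0 allows. Their summed level was 4911 CPM in 125 barcodes of library 1, 2614 CPM in 490 of library 2, 557.7 CPM in 412 of library 3 and 6688 CPM in 361 of library 4. With mitochondrial UMIs left out of the total these levels were 6668, 3578, 907.1 and 10507 CPM, against 5595, 7984, 2107 and 11323 CPM in the cells that were kept. These sums mix classes: 149 barcodes over the limit in library 2 and 266 in library 3 were neuron-like. Within neuron-like barcodes the level over 20% was 925.5 CPM in library 2 and 517.0 CPM in library 3. At 10 to 20% it was 1515 and 371.7 CPM.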

How the results depend on the processing

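No paired analysis was possible because the barcodes carry no replicate number and each group had 1 library. All 9 members stayed lowest in neuron-like cells of both libraries under each alternative to these levels that was run. Of 376 counts recomputed under the alternatives, 346 stayed within 1.5 times the main count. Highest-level counts moved as follows: with a mitochondrial limit of 10%, 2 members instead of 1 were highest in endothelial-like cells of library 1; with each barcode's own CPM averaged, 1 instead of 0 in fibroblast-like cells of library 3 and macrophage-like cells of library 2, and 1 instead of 2 in macrophage-like cells of library 3, as also with mitochondrial and haemoglobin UMIs left out. Thinned to 2000 UMIs, 2 members instead of 0 reached 25% of neuron-like barcodes in library 2.

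Summed over libraries, at 1.5-fold 11 members instead of 5 were higher in endothelial-like cells and 1 instead of 0 lower, and 13 instead of 8 were lower in macrophage-like cells. At 4-fold these were 0 higher in endothelial-like cells and 1 lower in macrophage-like cells. At 4-fold 0 instead of 3 members were higher and 3 instead of 7 lower in glia-like cells, and 1 instead of 5 higher in macrophage-like cells. Centring left 1 of the 3 higher in glia-like cells. For other early response genes, 1.5-fold gave 96 instead of 62 higher and 19 instead of 12 lower in endothelial-like cells, 51 instead of 33 lower in glia-like and 59 instead of 32 lower in macrophage-like cells. The 4-fold counts were 20 and 1 in endothelial-like, 9 higher and 13 lower in glia-like, and 9 higher and 15 lower in macrophage-like cells. In neuron-like cells 1 instead of 2 was higher at 4-fold, at a mitochondrial limit of 10%, with 1 more marker needed, at a minimum of 100 UMIs and with centring. The 1.5-fold and 4-fold counts move by construction; elsewhere the cause was not tested.

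Of 504 recomputed log2 ratios of single members, 10 fell below 2-fold, 2 newly passed it and none of those past it changed sign. With 1 library per group and 61.1% of library 2 ungated at low depth, the values describe these libraries.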

Other observations

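The 8 heat shock genes summed to 4206 CPM in neuron-like and 3587 CPM in glia-like cells of library 2, and to 2386 and 2245 CPM in library 3. Single genes went both ways. In neuron-like over glia-like cells Hspa1a, which encodes a stress-inducible chaperone, had log2 ratios of -3.95 and -4.33, its partner Dnajb1 of -1.06 and -1.02 and Hspa5, a chaperone of the endoplasmic reticulum, of -1.84 and -1.69. Hspb1, a small heat shock gene, stood at 0.51 in library 2 and -1.46 in library 3. Hsp90aa1 (2.13) and Hsph1 (1.17) were at least 2-fold higher in library 2, and none of the 7 genes measured was in library 3. Hspa8 stood at 0.96 and 0.80. Against fibroblast-like cells, glia-like cells of libraries 2 and 3 were at least 2-fold lower in Hspa1a and Hspb1, while Hspb1 was higher in glia-like cells of library 1.

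Cells without a class carried the members as well. Fos was at 1083, 2069, 1195 and 2606 CPM and Dusp1 at 605.7, 229.1, 289.3 and 192.5 CPM in the ungated cells of libraries 1 to 4.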
